A study of Mus musculus with 6 samples.

Results

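Wnt ligands, their receptors and the secreted proteins that antagonise them were followed in the left ventricle of pressure-overloaded mouse hearts. The genes were chosen by name and biotype, as the protein-coding Wnt, frizzled (Fzd), Sfrp, Dkk and R-spondin (Rspo) genes together with Frzb, Wif1, Lrp5, Lrp6, Axin2, Nkd1, Nkd2, Notum, Ror1 and Ror2, which gave 51 of the 54532 genes in the deposited table. They comprise 19 ligands, 10 frizzled receptors, 4 co-receptors or Ror receptors, 11 secreted antagonists, 4 Rspo genes and 3 intracellular feedback genes. Poly-A RNA was sequenced from 3 hearts of TG mice (HINT2CTG-Myh6Cre) and 3 hearts of NTG mice (C57BL/6J), 1 library per heart, and every mouse had undergone aortic banding (AB), a surgical constriction that overloads the ventricle with pressure, 4 weeks earlier. All were male and 8 to 10 weeks old at surgery. TG mice overexpress HINT2, a mitochondrial nucleotide-binding protein, in cardiomyocytes, where the Myh6 promoter drives an inducible Cre that is activated by tamoxifen at 5 mg/kg/d for 7 days. The sources used here do not state whether the NTG mice carried Cre or received tamoxifen, so the transgene, Cre and tamoxifen cannot be told apart, and no library of an unbanded heart was analysed here.

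Wnt ligands are secreted lipid-modified glycoproteins that bind frizzled receptors on neighbouring cells. With Lrp5 or Lrp6 as co-receptor they stabilise beta-catenin, which enters the nucleus and works with TCF/LEF factors on target genes such as Axin2. With Ror1, Ror2 or other partners, ligands such as Wnt5a and Wnt11 act through beta-catenin-independent branches that set cell polarity and calcium release. Sfrp proteins, Frzb and Wif1 bind ligands outside the cell, Dkk1 and its close relatives block Lrp5 and Lrp6, Notum strips the lipid from Wnt, and Rspo proteins raise receptor levels at the membrane. In the adult heart the pathway is largely quiet and is known to become active again after injury and overload, in fibroblasts as well as in muscle.

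Libraries held between 14863568 and 17581220 counts on genes. For Hint2, the targeted gene, TG libraries held 793, 828 and 859 counts. NTG 2 and NTG 3 held 545 and 559, but the library labelled NTG 1 held 12. That library therefore goes against its label as an ordinary non-transgenic heart, and genes whose call, direction or value turns on it are also given without it. Whether reads of the transgene are counted on Hint2 is not given in the sources used here. On the first principal component of all genes, with 52.3% of the variance, NTG 2 at 55.7 and NTG 3 at 29.3 stood apart from the TG libraries at -36.5 to -10.7, and the library labelled NTG 1, at -5.08, lay nearer to TG. Markers of cardiomyocytes, fibroblasts and endothelium were detected in every library. The study's methods describe 3 hearts per group, and the p-values measure the spread between them.

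Of the 51 Wnt genes, 30 had enough counts to be tested. Levels are given in CPM, the counts of a gene scaled to a common library size after TMM correction for composition, and fold changes are log2 values of TG over NTG from the edgeR quasi-likelihood fit, with p-values adjusted by Benjamini-Hochberg over 14774 genes. Genes are referred to as called where the adjusted p was below 0.05 and the log2 fold change lay beyond 0.5 in either direction. By this rule edgeR called 0 of the 30 Wnt genes and 0 genes in all (0%), so no Wnt gene passed the main test. At an unadjusted p below 0.05, edgeR had 10 of the 30 lower in TG (33.3%), against 9.76% of all genes tested, and 1 higher, against 8.83%. DESeq2, under the same thresholds, called 5 lower (16.7%), against 2.4% of all genes, and 0 higher, against 1.54%. These 5 were Sfrp1, Frzb, Sfrp2, Nkd2 and Wnt11. The groups did not overlap in CPM, with TG lower, for 9 genes (30.0%, against 12.3% of all genes), and with TG higher for 1, against 11.2%. The fitted level was lower in TG for 21 of the 30 (70.0%, against 51.3%). The median log2 fold change was -0.21, beside -0.0081 over all genes tested. Since the left ventricle is a mixture of cells, fewer cells of a type and less RNA per cell cannot be told apart in these values.

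**Figure D1:**
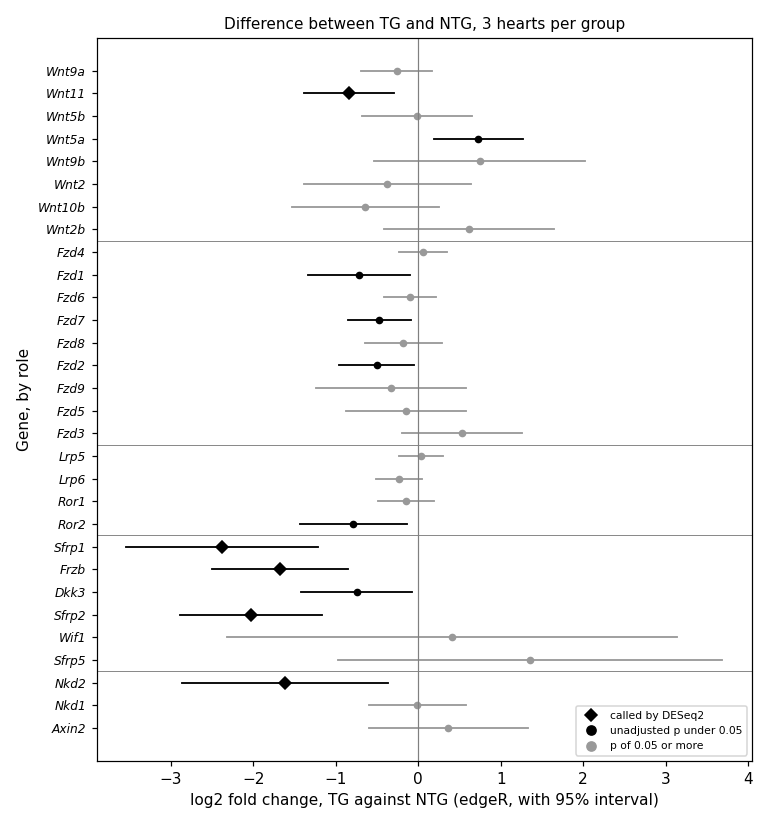
Log2 fold change of TG over NTG for each of the 30 tested Wnt genes, by role, with lines for the 95% confidence interval of the edgeR fit, black for an unadjusted p below 0.05 and diamonds for genes called by DESeq2. Sfrp1, Sfrp2, Frzb and Nkd2 lay farthest below 0, Wnt5a was the black point above it, and the intervals of Wif1 and Sfrp5 were the widest.

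The secreted antagonists held the largest differences by fold. Sfrp1, Frzb and Sfrp2, which share a frizzled-like domain that binds Wnt, were 3.20- to 5.18-fold lower in TG, and Dkk3, a divergent Dkk family member, was 1.68-fold lower. All 4 separated the groups in CPM, beside 12.3% of all genes with TG lower, and DESeq2 called the first 3, beside 2.4%. The summed level of all 11 antagonists was 276, 637 and 356 CPM in NTG 1, NTG 2 and NTG 3 and 99.2, 170 and 121 CPM in TG 1, TG 2 and TG 3. Every NTG heart was above every TG heart in this sum. As a share of the summed CPM per kilobase of all 51 Wnt genes, antagonists took 48.2% to 65.5% in NTG and 25.8% to 35.6% in TG.

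Sfrp1 (ENSMUSG00000031548, chr8:23411502-23449632, plus strand, GRCm38), a soluble frizzled-related inhibitor, was at 94.5, 350 and 178 CPM in NTG 1, NTG 2 and NTG 3 and at 34.4, 53.6 and 32.2 CPM in TG 1, TG 2 and TG 3. The lowest NTG heart stood above the highest TG heart, and NTG 2 was far above the other NTG libraries. The edgeR log2 fold change was -2.37 (SE 0.49), 5.18-fold lower in TG, with an unadjusted p of 0.00208 and a Benjamini-Hochberg adjusted p of 0.196. DESeq2 gave an adjusted p of 0.00427.

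Frzb (ENSMUSG00000027004, chr2:80411970-80447625, minus strand), also known as Sfrp3, was at 60.6, 131 and 87.5 CPM in the NTG hearts and at 24.7, 40.8 and 21.7 CPM in the TG hearts, in library order. The groups were separate, with NTG 2 again highest and TG 2 the highest of its group. The log2 fold change was -1.68 (SE 0.35), 3.20-fold lower, with an edgeR unadjusted p of 0.00204 and adjusted p of 0.196, and DESeq2's adjusted p was 6.58e-05.

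Sfrp2 (ENSMUSG00000027996, chr3:83766321-83774316, plus strand) was at 35.9, 66.6 and 27.0 CPM in NTG and at 9.81, 13.4 and 8.46 CPM in TG. No heart crossed between the groups, and NTG 3 was the lowest NTG heart here. TG over NTG gave a log2 fold change of -2.03 (SE 0.36), 4.08-fold lower, with an edgeR unadjusted p of 0.000863, the smallest of the 30, and an adjusted p of 0.196, while DESeq2 gave an adjusted p of 1.39e-06. The 250 bases before the start of Sfrp2 (RefSeq, GRCm38.p6, chr3:83766071-83766320, plus strand) are shown because it was called by DESeq2 and its RefSeq start is that of the deposited gene model. This window was searched on both strands for the TCF/LEF core CTTTGA, the TEAD core GGAATG, the GC box GGGCGG and the TATA box TATAAA, and none of the 4 was found in it.
Sfrp2: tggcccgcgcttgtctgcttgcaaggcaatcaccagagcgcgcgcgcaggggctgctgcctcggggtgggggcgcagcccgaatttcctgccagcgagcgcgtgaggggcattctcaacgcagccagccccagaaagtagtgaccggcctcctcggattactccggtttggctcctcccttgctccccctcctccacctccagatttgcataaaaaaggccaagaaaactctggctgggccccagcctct

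Dkk3 (ENSMUSG00000030772, chr7:112116017-112159057, minus strand) was at 75.1, 88.0 and 63.1 CPM in NTG and 26.3, 58.0 and 50.2 CPM in TG. The groups did not overlap, although NTG 3 and TG 2 were close. On the log2 scale the fold change was -0.75 (SE 0.28), with an edgeR unadjusted p of 0.0338 and adjusted p of 0.232, and a DESeq2 adjusted p of 0.0945.

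The other antagonists had wide intervals or few counts. Wif1, a Wnt-binding protein, had a log2 fold change of 0.41 with a 95% interval of -2.31 to 3.14, and Sfrp5 had 1.36 with an interval of -0.97 to 3.69. Without the library labelled NTG 1 the value of Sfrp5 was 3.33, with an edgeR adjusted p of 0.0870. Sfrp4, Dkk2, Notum and Dkk1 had too few counts to be tested, with 40, 36, 19 and 3 counts over the 6 libraries, and Dkk4 had 0. Notum, itself a target of beta-catenin, had 3, 0 and 0 counts in NTG and 3, 5 and 8 in TG.

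**Figure D2:**
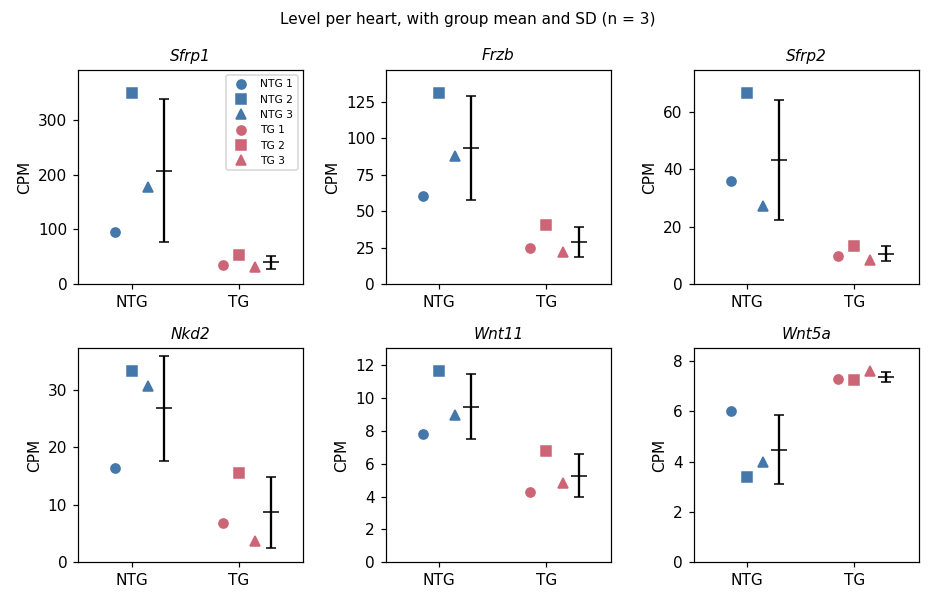
CPM of the 5 Wnt genes called by DESeq2 and of Wnt5a, 1 panel per gene with its own linear axis from 0, 1 point per heart, and the mean and SD of each group (n = 3) in black. NTG 2 is the highest heart for Sfrp1, Frzb and Sfrp2, and Wnt5a is the gene in which the TG points lie above the NTG points.

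The same hearts carried high and low values for most of the 10 genes that were lower in TG. TG 2 was the highest TG heart for all 10, NTG 2 was the highest NTG heart for 8, and the library labelled NTG 1 was the lowest NTG heart for 6 and NTG 3 for the other 4.

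Markers of fibroblasts were fitted lower in TG for 9 of 10, as were 4 of the 6 tested secreted antagonists. Over all genes tested, 9.76% were lower and 8.83% higher in TG at an unadjusted edgeR p below 0.05. DESeq2 called 2.4% of all genes lower and 1.54% higher. Of 10 fibroblast markers, edgeR had 6 lower in TG at an unadjusted p below 0.05 and DESeq2 called 4 lower. Their median log2 fold change was -0.52 and their summed level 6334 to 9172 CPM in NTG and 4493 to 6237 CPM in TG. Among 8 markers of activated fibroblasts, 6 were lower and 1, Acta2, was higher at an unadjusted p below 0.05, with DESeq2 calling 5 lower. The median was -2.41, with a summed level of 1805 to 5788 CPM in NTG and 424 to 1286 CPM in TG. The 10 fibroblast markers ranged from -1.59 for Mfap5, past -0.65 for Dcn, -0.39 for Pdgfra, -0.29 for Lum, -0.20 for Dpt and -0.05 for Tcf21, to 0.24 for Gsn, with the 3 collagen genes between -1.45 and -1.12. No marker of either list was at 0 in any library. Cardiomyocyte markers were fitted higher in TG for 8 of 8, with 1 at an unadjusted p below 0.05 and sums of 21512 to 35005 CPM in NTG and 32671 to 39692 CPM in TG. Macrophage and immune markers were fitted lower for 8 of 8, with 3 at an unadjusted p below 0.05. Of 8 endothelial markers 2 were higher and 1 lower at an unadjusted p below 0.05, with a median of -0.035. Of 8 markers of smooth muscle and pericytes 2 were higher, Myh11 at 0.70 and Cnn1 at 0.75, both called by DESeq2, with a median of 0.0082. Medians of the other lists were -1.05 for red blood cells (5 of 5 lower at an unadjusted p below 0.05), 1.83 for Schwann cells and neurons (3 tested) and -0.13 for the epicardium (2 tested of 6). The part of cell composition in the Wnt gene results was not tested.

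Ligands were expressed at low levels and, in sum, at nearly the same level in both groups. Of 19 ligand genes, 8 could be tested, and the summed CPM of all 19 was 35, 31.5 and 31.8 in NTG and 30.4, 32.6 and 31.2 in TG. Within this sum, Wnt11 was lower and Wnt5a higher in TG at an unadjusted p below 0.05, and both are ligands of the beta-catenin-independent branches.

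Wnt9a, a ligand used in valve and skeletal development, had the highest level per kilobase of gene length among ligands, with a mean of 2.29 CPM per kb. It was at 8.19, 7.75 and 8.97 CPM in NTG and 7.21, 8.07 and 5.49 CPM in TG, and the groups overlapped. Its log2 fold change was -0.26, with a 95% interval of -0.69 to 0.17. Wnt11 followed in NTG at 2.29 CPM per kb, beside 2.49 for Wnt9a, but in TG Wnt5b came second at 1.77 and Wnt11 next at 1.28. Wnt5a was in the fourth place in both groups. The means of Wnt9a and Wnt11 in NTG differed by less than the SD of Wnt11 between hearts, and those of Wnt9a and Wnt5b in TG by less than the SD of either.

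Wnt11 (ENSMUSG00000015957, chr7:98835112-98855195, plus strand), which acts in cardiac development through cell polarity and calcium signalling, was at 7.78, 11.6 and 8.97 CPM in NTG and 4.26, 6.77 and 4.82 CPM in TG. The groups were separate. The log2 fold change was -0.84 (SE 0.24), 1.79-fold lower, with an edgeR unadjusted p of 0.00719 and adjusted p of 0.196, and DESeq2's adjusted p of 0.0481 was just inside its threshold. The 250 bases before its start (RefSeq, GRCm38.p6, chr7:98834862-98835111, plus strand) are shown for the same reason as those of Sfrp2, with matches in capitals. Counted back from the start, the TCF/LEF core lies on the opposite strand with its first base at 50, a TATA box at 29 and 4 GC boxes begin farther away, 2 of which share 1 base.
Wnt11: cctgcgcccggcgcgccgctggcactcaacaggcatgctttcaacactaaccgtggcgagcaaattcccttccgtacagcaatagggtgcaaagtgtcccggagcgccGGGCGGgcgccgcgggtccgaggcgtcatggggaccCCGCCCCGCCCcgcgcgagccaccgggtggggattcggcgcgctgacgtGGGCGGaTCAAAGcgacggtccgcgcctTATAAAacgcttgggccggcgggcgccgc

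Across all 32851 mouse promoters of this length, the TCF/LEF core was found in 13.8%, the TEAD core in 12.6%, the GC box in 32.7% and the TATA box in 12.4%. RefSeq promoters were at hand for 34 of the 51 Wnt genes, of which 5 held a TCF/LEF core, 0 a TEAD core, 25 a GC box and 5 a TATA box. Such matches are a description of the letters and not evidence of binding.

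Wnt5a (ENSMUSG00000021994, chr14:28504750-28527448, plus strand), a ligand for Ror2 and several frizzled receptors, was at 6.01, 3.40 and 3.99 CPM in NTG and 7.28, 7.22 and 7.59 CPM in TG. It was higher in every TG heart than in any NTG heart, and the TG hearts were close to each other. TG over NTG gave a log2 fold change of 0.73 (SE 0.23), 1.66-fold higher, with an edgeR unadjusted p of 0.0143 and adjusted p of 0.207 and a DESeq2 adjusted p of 0.0940. Without the library labelled NTG 1, Wnt5a was called by edgeR, with an adjusted p of 0.0370.

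Of the other ligands tested, Wnt5b had a log2 fold change of -0.02 with an interval of -0.68 to 0.65. Wnt5b overlaps Fbxl14 on the opposite strand, which had 2426 counts, and the strand setting of the counting is not given in the sources used here, so its level is uncertain. Wnt2 had -0.37, Wnt10b -0.64, Wnt2b 0.61 and Wnt9b 0.75, all with intervals that include 0. The 11 other ligands were not tested. Wnt4 had 37 counts in all, Wnt6 30, Wnt7a 11, Wnt1 10, Wnt16 5, Wnt8b 4, and Wnt7b and Wnt10a 1 each. Wnt3, Wnt3a and Wnt8a had 0 counts, as did Rspo2, Rspo4 and Dkk4, and a count of 0 over the 98217892 counts of the 6 libraries allows a level of up to 0.0305 CPM, counting error only. Wnt6 was at 2, 4 and 2 counts in NTG and 10, 1 and 11 in TG, so the groups overlapped.

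**Figure D3:**
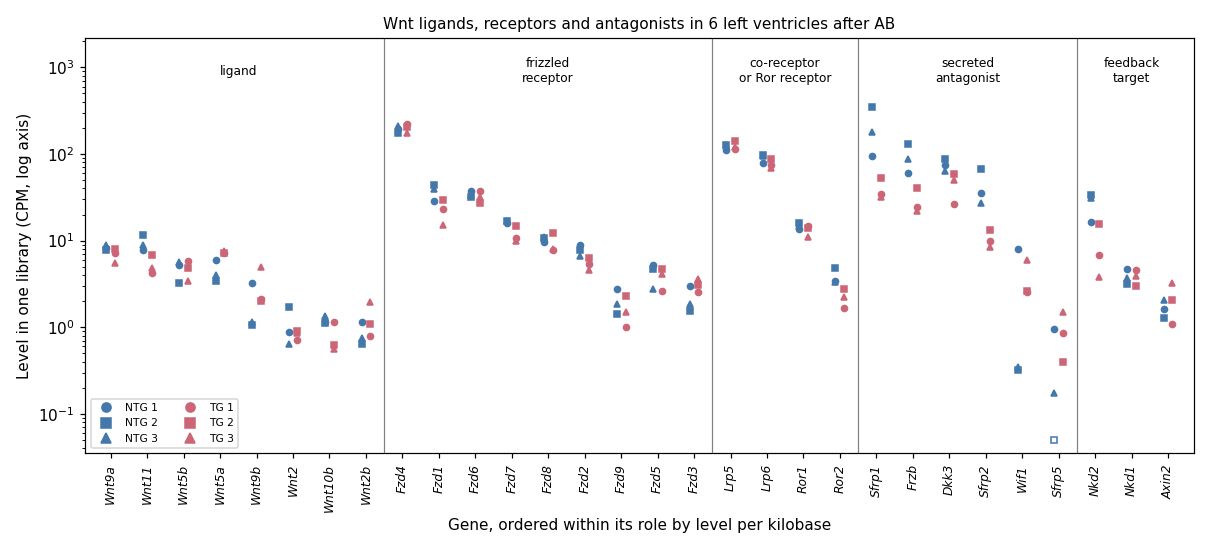
CPM, on a log axis, of the 30 tested Wnt genes, 1 point per heart, ordered within each role by level per kilobase, with the hollow point standing for the 0 of Sfrp5 in NTG 2. TG and NTG points overlap for most ligands and receptors, and separate for Sfrp1, Frzb, Dkk3, Sfrp2 and Nkd2.

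Frizzled receptors bind the ligand, and 9 of the 10 genes were tested. Their summed level was 307, 292 and 325 CPM in NTG and 315, 305 and 254 CPM in TG, so the groups overlapped. Fzd1, Fzd7 and Fzd2 were lower in TG at an unadjusted edgeR p below 0.05, beside 9.76% of all genes. DESeq2 called none of the 9, beside 2.4% of all genes called lower and 1.54% higher.

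Fzd4 (ENSMUSG00000049791, chr7:89404355-89413134, plus strand), a receptor of vascular endothelium among other cells, had the highest level per kilobase of all 51 genes, with a mean of 29.4 CPM per kb over all hearts. In NTG alone Sfrp1 was higher, at 47.4 CPM per kb beside 28.8 for Fzd4, and in TG it was lower, at 9.16 beside 30.0. Fzd4 was at 195, 173 and 211 CPM in NTG and 225, 205 and 175 CPM in TG, with full overlap. Its log2 fold change was 0.06 with an interval of -0.23 to 0.35.

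Fzd1 was at 28.7, 44.0 and 39.4 CPM in NTG and 23.3, 29.8 and 15.2 CPM in TG. TG 2 lay above the library labelled NTG 1, so the groups overlapped. On the log2 scale the fold change was -0.72 (SE 0.26), with an edgeR unadjusted p of 0.0280 and adjusted p of 0.226.

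Fzd7 was at 16.0, 16.7 and 16.9 CPM in NTG and 10.7, 14.9 and 10 CPM in TG. The NTG hearts were within 1 CPM of each other and above every TG heart. The log2 fold change was -0.47 (SE 0.17), with an edgeR unadjusted p of 0.0213 and adjusted p of 0.217.

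Fzd2 was at 8.87, 7.86 and 6.60 CPM in NTG and 5.41, 6.37 and 4.63 CPM in TG. These groups were separate, but NTG 3 and TG 2 were within 1 CPM of each other. TG over NTG gave a log2 fold change of -0.50 (SE 0.20), with an edgeR unadjusted p of 0.0333 and adjusted p of 0.232.

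The log2 fold changes of Fzd6, Fzd8, Fzd9, Fzd5 and Fzd3 were -0.10, -0.18, -0.33, -0.15 and 0.53, each with an interval that includes 0, and Fzd10 had 5 counts in all.

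Among the co-receptors, Lrp5 (ENSMUSG00000024913, chr19:3584828-3686564, minus strand) had the highest level, 12.7 CPM per kb. It was at 112, 125 and 128 CPM in NTG and 113, 142 and 119 CPM in TG. The groups overlapped, with a log2 fold change of 0.03 and an interval of -0.23 to 0.29. Lrp6, the other beta-catenin co-receptor, had a log2 fold change of -0.24 with an interval of -0.51 to 0.04, and Ror1 had -0.15 with an interval of -0.49 to 0.19.

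Ror2 (ENSMUSG00000021464, chr13:53109312-53286124, minus strand), a tyrosine kinase-like receptor for Wnt5a, was at 3.41, 4.78 and 3.36 CPM in NTG and 1.66, 2.79 and 2.22 CPM in TG. Every NTG heart was above every TG heart, the opposite order to that of Wnt5a. On the log2 scale the fold change was -0.79 (SE 0.28), with an edgeR unadjusted p of 0.0228 and adjusted p of 0.217, and a DESeq2 adjusted p of 0.169.

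None of the 4 Rspo genes could be tested. Rspo1 had 40 counts and Rspo3 26 counts over the 6 libraries, and Rspo2 and Rspo4 had 0.

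Of the 3 intracellular feedback genes, DESeq2 called 1, Nkd2, as lower in TG, beside 2.4% of all genes. Nkd2 and Nkd1 encode naked cuticle proteins that bind Dishevelled and dampen the signal, and Axin2 belongs to the complex that destroys beta-catenin. Axin2 is widely used as a readout of beta-catenin activity.

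Nkd2 (ENSMUSG00000021567, chr13:73818534-73847631, minus strand) was at 16.4, 33.3 and 30.7 CPM in NTG and 6.78, 15.6 and 3.77 CPM in TG. The groups were separate, but TG 2 came within 1 CPM of the lowest NTG heart. In edgeR the log2 fold change was -1.61 (SE 0.52), 3.06-fold lower, with an edgeR unadjusted p of 0.0187 and adjusted p of 0.213, and DESeq2's adjusted p was 0.0165. The 250 bases before its start (RefSeq, GRCm38.p6, chr13:73847632-73847881, minus strand), shown for the same reason as those of Sfrp2, held none of the 4 motifs.
Nkd2: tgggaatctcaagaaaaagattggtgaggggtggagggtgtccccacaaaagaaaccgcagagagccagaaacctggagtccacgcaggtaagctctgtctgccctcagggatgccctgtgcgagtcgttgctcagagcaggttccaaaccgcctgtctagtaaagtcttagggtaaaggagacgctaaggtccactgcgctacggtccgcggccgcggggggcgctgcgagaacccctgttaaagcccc

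Axin2 (ENSMUSG00000000142, chr11:108920349-108950783, plus strand) was at 1.64, 1.27 and 2.08 CPM in NTG and 1.08, 2.05 and 3.27 CPM in TG. The groups overlapped fully. Its log2 fold change was 0.37 with an interval of -0.60 to 1.33, which includes 0. Nkd1 had a log2 fold change of -0.01 with an interval of -0.60 to 0.57.

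A separate order of hearts was seen in a few sparse genes, which were singled out after their values had been seen. Wif1 was at 7.99, 0.319 and 0.347 CPM in NTG and 2.52, 2.62 and 6.05 CPM in TG. The library labelled NTG 1 and TG 3 were the highest hearts for Wif1, and the same 2 hearts were highest for Wnt9b, Wnt2b, Sfrp5 and Wnt7a, 5 of the 39 Wnt genes with at least 10 counts. For Wnt7a this rests on scaling, as the library labelled NTG 1, NTG 2 and TG 3 held 3 counts each. The share of all genes with these 2 hearts highest was not counted. Wnt9b was at 3.28, 1.06 and 1.16 CPM in NTG and 2.09, 1.99 and 5.00 CPM in TG. Markers of atrial muscle followed this order for 3 of 4 genes. Myl7, the atrial myosin light chain, was at 19.5, 0.159 and 0 CPM in NTG and 1.59, 7.67 and 64.4 CPM in TG. Myl4 and Sln had the same 2 hearts highest and Nppa did not. The part of atrial tissue in these values was not tested. Without the library labelled NTG 1, Wif1 had an edgeR log2 fold change of 3.46 with an adjusted p of 0.0230, while with all libraries its unadjusted p was 0.729.

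**Figure D4:**
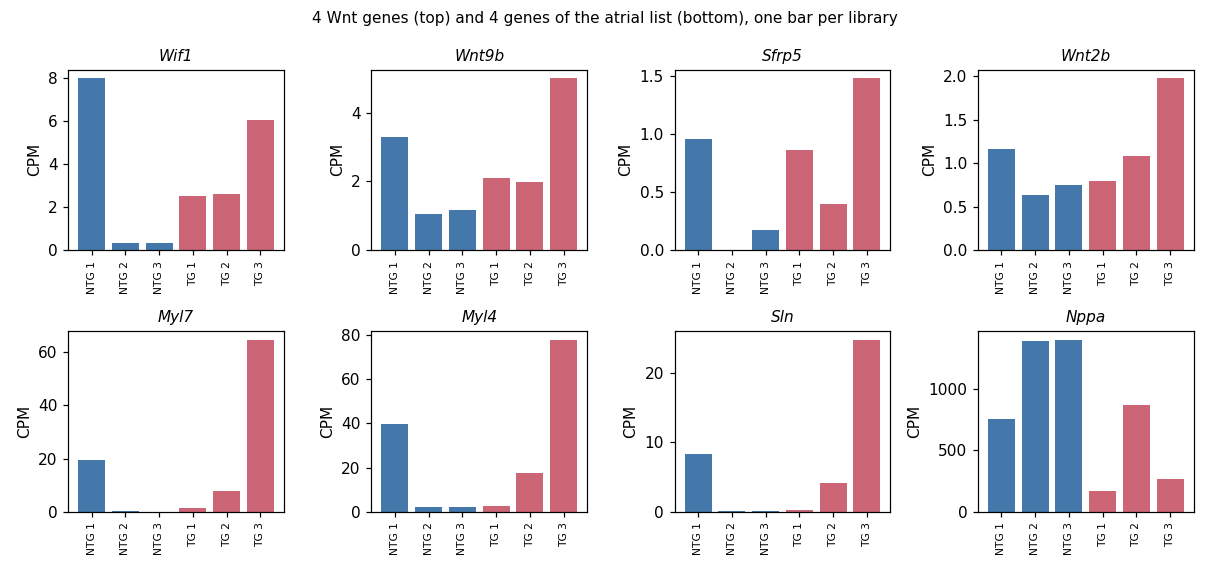
CPM of 4 Wnt genes (upper row) and 4 genes of the atrial list (lower row), 1 bar per heart, each panel with its own linear axis from 0. The library labelled NTG 1 and TG 3 have the tallest bars in every panel but that of Nppa.

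The rest of the pathway was read from lists of genes around the 51. Of 89 genes tested among the other 99, edgeR had 12 lower (13.5%, against 9.76% of all genes) and 4 higher (4.49%, against 8.83%) in TG at an unadjusted p below 0.05. DESeq2 called 5 lower and 1 higher, beside 2.4% and 1.54% of all genes, and the median log2 fold change was -0.053. All 3 genes of the list for ligand export were fitted lower with no overlap between groups, beside 12.3% of all genes, and 2 of them had an unadjusted p below 0.05. Wls, the carrier that takes Wnt to the cell surface, was at 64.6, 88.1 and 71.3 CPM in NTG and 48.0, 53.4 and 49.1 CPM in TG, with no overlap, and a log2 fold change of -0.58 that DESeq2 called at an adjusted p of 0.0142. Ptpn9 had a log2 fold change of -0.43 and Porcn, the enzyme that attaches the lipid to Wnt, -0.32.

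Among 16 tested co-receptors and modulators, edgeR had 4 lower (25%, against 9.76% of all genes) and 1 higher (6.25%, against 8.83%) at an unadjusted p below 0.05. Gpc6, a glypican of the cell surface, had a log2 fold change of -0.87 and was called by DESeq2 at an adjusted p of 0.0297. Gpc4, another glypican, had -0.39, Ryk, a Wnt-binding receptor, -0.30, Ptk7, a polarity receptor, -0.62, and Lgr6, a receptor for Rspo, 0.79. Lgr6 was at 23.5, 11.4 and 12.1 CPM in NTG and 26.4, 23.7 and 30.9 CPM in TG, and without the library labelled NTG 1 it was called, at 1.19 with an edgeR adjusted p of 0.0149. Of the 34 tested genes of beta-catenin transduction, 1 was higher at an unadjusted edgeR p below 0.05 (2.94%, against 8.83% of all genes) and 0 were lower. The gene was Gsk3a, a kinase that marks beta-catenin for destruction, at 0.27, and the median of the list was -0.029.

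In the list of planar polarity and calcium genes, 27 were tested, with 4 lower (14.8%) and 2 higher (7.41%) at an unadjusted p below 0.05, beside 9.76% and 8.83% of all genes. Celsr1, an atypical cadherin of planar polarity, was at 4.57, 4.83 and 5.67 CPM in NTG and 13.6, 12.0 and 8.46 CPM in TG, 1.17 higher on the log2 scale with a DESeq2 adjusted p of 0.000885. Invs, a Dishevelled-binding protein of the cilium, had -0.84 with a DESeq2 adjusted p of 0.0190. Prickle1 and Prickle2 stood on opposite sides at 0.56 and -0.35, and Cdc42 and Nfatc4 were at -0.27 and -0.68.

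Of 11 tested beta-catenin target genes outside the 51, 2 were lower in TG (18.2%, against 9.76% of all genes) at an unadjusted p below 0.05. DESeq2 called both, beside 2.4% of all genes called lower. Wisp1 and Wisp2 are secreted matricellular proteins of connective tissue. Wisp1 was at 8.40, 20.3 and 6.36 CPM in NTG and 1.59, 3.35 and 0.988 CPM in TG, a log2 fold change of -2.55. Wisp2 was at 60.0, 179 and 122 CPM in NTG and 17.1, 33.2 and 19.5 CPM in TG, a log2 fold change of -2.37. Both separated the groups, and NTG 2 was the highest heart for each. The median of the 11 was -0.21.

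Leaving out 1 library at a time changed which Wnt genes were called. Frzb and Sfrp2 were called by DESeq2 whichever library was left out. Sfrp1 was called in 4 of the 6 cases, all but those without TG 1 or TG 3. Nkd2 was called only without TG 2, and Wnt11 without TG 2 or without the library labelled NTG 1. DESeq2 called 7 Wnt genes without the library labelled NTG 1, beside 11.7% of all genes called in either direction. Without TG 2 it called 8, where Dkk3, Fzd1 and Fzd7 were added, beside 5.17%. It called 3 without NTG 2, 3 without NTG 3, 2 without TG 1 and 2 without TG 3, beside 0.638% to 1.18%. The settings with the most called Wnt genes thus also had the highest shares of all genes called. edgeR called 4 without the library labelled NTG 1, namely Frzb and Sfrp1 lower and Wif1 and Wnt5a higher, beside 5.52% of all genes, and 0 without any other. In the pathway lists DESeq2 called Celsr1 and Wisp1 in all 6 cases and Wisp2 in 5, all but that without TG 3, but Wls, Gpc6 and Invs in 2 of 6, without the library labelled NTG 1 or without TG 2. There edgeR without the library labelled NTG 1 called Celsr1 and Lgr6 higher and Gpc6, Ptpn9, Wisp2 and Wls lower. Among uncalled Wnt genes, leaving out that library moved Wnt9b from 0.75 to 1.44, Wnt2b from 0.61 to 0.89 and Fzd3 from 0.53 to 0.85. Fzd9 moved from -0.33 to -0.035 and Fzd5 from -0.15 to 0.020. Smaller values also moved, that of Nkd1 from -0.011 to 0.15, Lrp5 from 0.032 to -0.027, Wnt5b from -0.016 to 0.062 and Fzd6 from -0.098 to -0.024. DESeq2 without that library also called Fzd1, Gpc4 and Nfatc4 lower, with adjusted p of 0.0181, 0.0228 and 0.0277. At an unadjusted p below 0.05 edgeR had 6 Wnt genes without NTG 2, where the share of all genes was 10.4%, beside 18.6% with all libraries. The log2 fold change ranged from -2.72 to -1.76 for Sfrp1, -2.28 to -1.57 for Sfrp2, -2.00 to -1.35 for Frzb and -0.98 to -0.48 for Dkk3. It ranged from -2.36 to -1.25 for Nkd2, -1.06 to -0.66 for Wnt11 and 0.56 to 1.0 for Wnt5a.

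**Figure D5:**
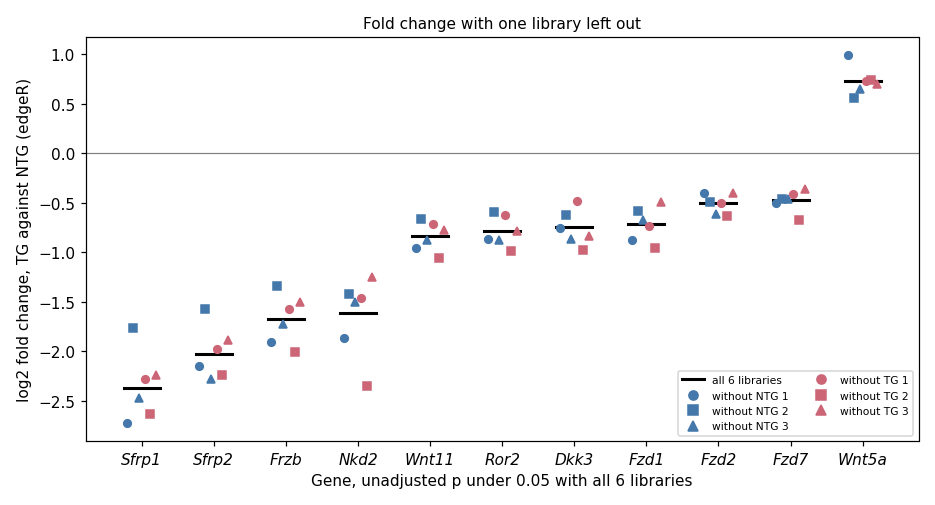
Log2 fold change of TG over NTG with each library left out in turn, 1 point per library left out and a black line for all 6, for the 11 Wnt genes with an unadjusted p below 0.05 in edgeR. Sfrp1, Sfrp2, Frzb, Nkd2 and Wnt11 stayed below 0 and Wnt5a above 0 in each case.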

How the data were processed

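RNA-seq was performed on poly-A RNA of 6 left ventricles, 3 TG and 3 NTG. The values the authors deposited are raw counts per gene, 1 column per library, without normalization or pooling. The submitters' processing notes list HISAT2, DESeq2 and GRCh38, and the paper's methods name StringTie and featureCounts, while strandedness and the treatment of multi-mapping reads are not given in the sources used here. GRCh38 is the name of a human build, but the identifiers are mouse: 54495 of 54532 genes are in GENCODE M21 (GRCm38), 53585 with identical start and end, as have 50 of the 51 Wnt genes. All value columns were matched to libraries by label, with 0 left unmatched.

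The comparison was run with edgeR 4.0.16 (R 4.3.3), using TMM scaling, filterByExpr by group, robust dispersions and the quasi-likelihood test, with Benjamini-Hochberg adjustment over 14774 genes. TMM factors were 0.929 to 1.07 and depths 14863568 to 17581220 counts, which limits precision most for sparse genes. Of the 51 genes, 21 failed the filter, 15 with at least 1 count and none with over 17 in a library. Intervals cover 95%. Levels were compared between genes only as CPM per kilobase of the deposited gene length. DESeq2 1.42.0, the tool of the study, and limma 3.58.1 (voom) were alternatives, as were 3 other scalings, no filter, at least 10 counts in every library, a replicate block and leaving out each library. In simulated libraries with 188 of 14526 genes changed 4-fold, the shares recovered were 90.4% by edgeR, 92.6% by DESeq2 and 91.0% by voom, and false calls numbered 8, 31 and 9. The simulation drew each gene separately around a common mean and held no library that goes against its label. The real libraries shared high and low values across genes, so these shares need not hold for them. Promoters came from RefSeq (GRCm38.p6), 250 bases before the start.

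The Wnt genes, the pathway and marker lists and the rule for named genes were chosen with earlier results of these data known. Values in all libraries are given for tested Wnt genes with an unadjusted edgeR p below 0.05, called by DESeq2 or with the highest level per kilobase of their role, and for Axin2. Genes of the other pathway lists are named where that p is below 0.05, apart from Porcn, which was added after its value was seen. The lists were written from recalled pathway membership.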

Additional observations from a re-analysis of the deposited data

How the results depend on the processing

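The median log2 fold change of the tested Wnt genes stayed between -0.33 and -0.15 in all alternatives. Genes called over the whole table numbered 0 with edgeR, 232 without a low-count filter, 583 with DESeq2, 1 with voom and 231 with a replicate block, and 0 to 1773 with 1 library left out in edgeR or DESeq2. Called Wnt genes numbered 5 with DESeq2, 3 with the replicate block (Frzb, Sfrp1 and Sfrp2) and 0 to 8 with 1 library left out. Wnt genes at an unadjusted p below 0.05 numbered 6 to 15 with 1 library left out, while the share of all genes moved from 9.51% to 27%. The cause of these changes was not tested.

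Of 46 named genes, 37 kept their direction in up to 20 alternatives and 9, all with an unadjusted p above 0.05, did not. Scaling by library size alone gave -0.049 for Lrp5 and -0.024 for Fzd4, and moved the median of all genes to -0.093, and voom gave 0.0038 for Wnt5b. With 1 library left out the log2 fold change ranged from -0.075 to 0.68 for Axin2, -0.028 to 0.16 for Fzd4, -0.38 to 0.058 for Fzd5, -0.23 to 0.023 for Fzd6, -0.070 to 0.099 for Lrp5, -0.16 to 0.15 for Nkd1, -0.16 to 3.49 for Wif1, -0.64 to 0.14 for Wnt2 and -0.23 to 0.17 for Wnt5b.

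Libraries of the same replicate number correlated at 0.081, 0.17 and -0.25 in their deviations from the group means, and not every TG library correlated best with its own number. With 3 hearts per group, these values cannot decide whether the numbers pair the hearts. Depth limits the 21 untested genes, and 3 hearts per group limit every comparison.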
